A study of Sus scrofa with 9 samples.

Results

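Immediate early genes and heat shock genes were followed in the outflow veins of pig arteriovenous fistulas, the vessel access made by surgery for dialysis. The members were the rows of the deposited table whose symbol equalled 1 of 33 listed genes. Of these, 27 were present, 19 of the 22 immediate early genes and 8 of the 11 heat shock genes, in a table of 30477 genes. No row carried the symbol JUN, JUND, IER2, HSPA1A, HSPA1B or HSP90AA1, and 14012 rows of the table carried no symbol. HSPA1A and HSPA1B, the stress-inducible HSP70 genes of the textbook heat shock response, are therefore not analysed here.

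All animals carried a chronic kidney disease model, and 28 days after its induction the carotid artery and jugular vein were joined. In the MSC group, adipose-derived mesenchymal stem cells in Ringer's lactate were layered on the adventitia of the outflow vein directly after surgery. Control veins had the same fistula and no treatment. All veins were taken after another 28 days, and RNA was sequenced in 3 control and 6 MSC libraries. Each library name holds its own animal-like number, but the labels do not say that each library is a separate animal. P-values therefore speak only of library-to-library spread, part of which may be technical. The name of control 2 holds the tags NT and F, and that of MSC 1 the tags Allo and M, without an explanation.

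Immediate early genes are switched on within minutes of a stimulus, such as a growth factor, stretch or injury, without new protein synthesis. Most encode transcription factors (FOS, JUN, EGR and NR4A families), and others encode proteins that shut the signal off again. In the vessel wall they respond to injury and to changes in flow. Heat shock genes encode chaperones that fold, refold or hand over proteins for degradation; some are made all the time and others on stress, under the control of the transcription factor HSF1. In bulk tissue, fewer cells of a type and less RNA per cell cannot be told apart.

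Values are RPKM, reads per kilobase of gene and normalised to the assigned reads of the library, as the authors deposited them, divided here by a scaling factor for each library (scaled RPKM). The libraries held 16939157 to 47417606 reads. Small RNA classes made up 53.3% of all reads for MSC 6 and 40.4% for control 2, and 6.75% to 16.4% for the remaining 7, and the scaling factors were 0.408 in MSC 6, 0.755 in control 2, 0.805 in MSC 5 and 1.14 to 1.44 elsewhere. MSC 5 held the highest value of 31.6% and the lowest value of 31.8% of the 17884 genes tested. The 3 MSC libraries MSC 2, MSC 5 and MSC 6 came from lane 7 of the flow cell, which held no control. Reads on the Y-linked genes EIF1AY and KDM5D were 0 or 1 in the controls, 0 in MSC 3 and 571 to 5640 in the other MSC libraries. Apart from MSC 3, these reads followed the groups. Sex, or male cells, therefore cannot be told apart from the treatment in the fold changes below.

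No member passed the test between the groups. The MSC libraries spanned over 2-fold in 25 of the 27 members and the controls in 6 (FOS, FOSB, FOSL2, JUNB, EGR2 and HSPB1). A range grows with the number of libraries, here 6 against 3, and the share over all genes was not computed. Leaving out the highest MSC library lowered the MSC mean by over 1.5-fold in 7 members (FOSB, FOSL2, JUNB, NR4A1, NR4A3, SOCS3 and HSPB1). For this count, too, the share over all genes was not computed. MSC 5 held the highest level of 11 of the 19 immediate early members, against 31.6% of all genes tested. Among the 8 heat shock members it held the highest level of HSPB1, BAG3 and DNAJB1 and the lowest of HSPA8, HSPH1 and DNAJA1. These counts, 3 and 3 of 8, lie near its shares of all genes, 31.6% highest and 31.8% lowest. MSC 4 led NR4A2 and NR4A3. Every MSC library lay above every control in DUSP1 alone under the scaling used, and also in NR4A3 under median-ratio factors.

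**Figure D1:**
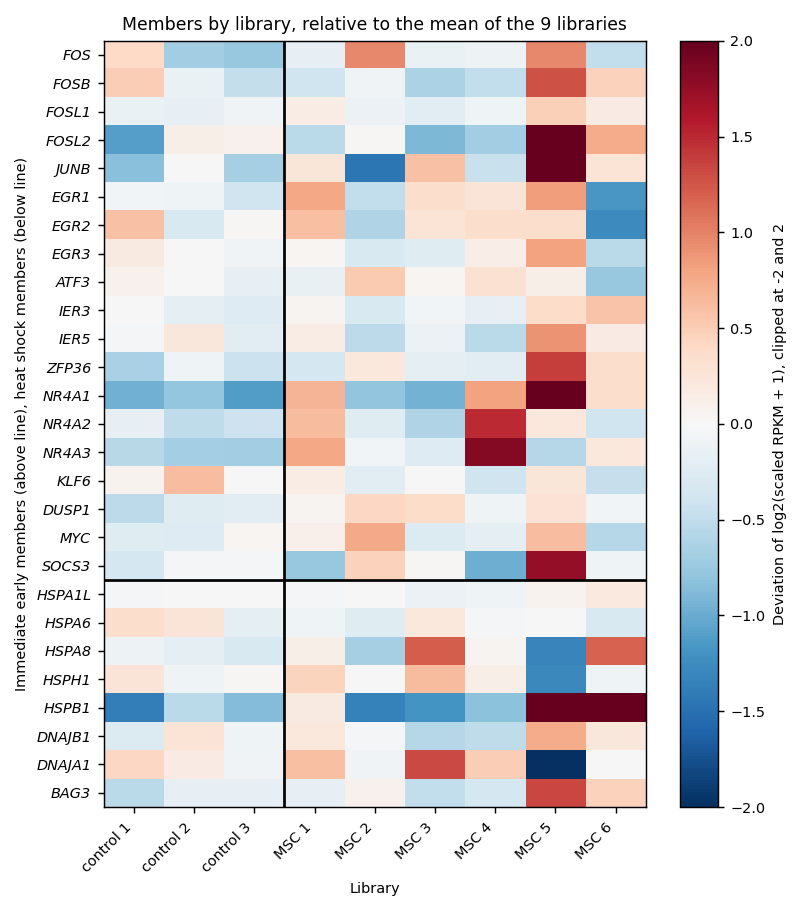
Deviation of log2(scaled RPKM + 1) from the mean of the 9 libraries, for the 27 members (rows) in 3 control and 6 MSC libraries (columns); red is above and blue below the mean. The MSC 5 column is red for most immediate early genes, with a median deviation of 0.80, and mixed for the heat shock genes, with a median of 0.04.

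FOS and JUN proteins are subunits of the transcription factor AP-1. MSC 5 held the highest level of all 5 measured members of the FOS and JUN families under the scaling used, level with MSC 2 in FOS. FOSL2 encodes a FOS-related subunit with a long-lived product. It stood at 6.02, 15.4 and 15.02 scaled RPKM in control 1, control 2 and control 3, and at 7.14 (lowest), 11.9 (median) and 70.6 (highest) in the MSC libraries. MSC 5 lay 2.90-fold above the next library, MSC 6 at 24.4, and the other 4 MSC libraries lay within the control range. The mean of FOSL2 was 12.1 ± 5.30 (SD, n = 3) among controls and 22.4 ± 24.4 (SD, n = 6) for the MSC group, or 12.7 without MSC 5. Its log2 fold change was 0.45 ± 0.66 (SE), 0.03 without MSC 5, 0.04 without control 1 and −0.22 without MSC 5 and MSC 6.

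FOS, the founding member of the family (chromosome 7, 98449349 to 98455554), was at 9.63, 3.99 and 3.79 scaled RPKM in controls 1 to 3, and the MSC libraries ran from 4.75 through a median of 6.43 to 14.7. MSC 2 and MSC 5 held nearly the same top value, and control 1 lay above the other 4 MSC libraries. FOS had a log2 fold change of 0.52 ± 0.42 (SE), which was 0.88 without control 1, 0.34 without control 2 and 0.27 without control 3. JUNB, a JUN partner of FOS proteins, was at 1.73, 3.91 and 2.06 in the controls and at 0.777, 4.82 and 22.5 as lowest, median and highest MSC value. MSC 2 had the least JUNB of all libraries and MSC 5 the most, so the groups overlapped; JUNB also overlaps HOOK2 on the genome and may share its reads.

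FOSB and FOSL1 were lower in level. FOSB ranged from 0.785 to 2.49 scaled RPKM in controls and from 0.605 to 4.99578 in MSC veins. FOSL1 had between 3 and 45 reads per library and stayed at or below 0.686 scaled RPKM. On this per-length scale, FOSL2 was the most abundant of the 4 FOS genes in 7 libraries and FOS in the other 2, control 1 and MSC 2. The gene name table pairs 1 row without a deposited symbol, annotated as a pseudogene, with JUN. This row, which the member rule did not take, stood at 6.44, 13.1 and 8.42 scaled RPKM in the controls, at 5.45 to 12.9 in 5 MSC libraries and at 75.4 in MSC 5. A second such row, paired with IER2 and annotated as a lncRNA, held 0 to 8 reads per library.

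The EGR genes encode zinc finger transcription factors. EGR1, a regulator of growth factor and tissue factor genes in injured vessels, was at 22.1, 21.7 and 17.3 scaled RPKM in controls 1 to 3, and at 9.69, 28.8 and 41.8 as lowest, median and highest MSC value. MSC 1 and MSC 5 held about the same top level, MSC 3 and MSC 4 also lay above the controls, and MSC 2 and MSC 6 lay below them. The mean was 20.3 ± 2.68 (SD, n = 3) among controls and 27.6 ± 12.8 (SD, n = 6) for the MSC group. EGR1 exceeded EGR2 in every library, by 5.12- to 20.5-fold per length. EGR2 ranged from 1.86 to 4.31 in controls and from 0.472 to 4.39 in MSC veins, and EGR3 from 0.645 to 0.952 and from 0.181 to 1.9987. MSC 6 held the lowest level of all 3 EGR genes, under each of the 4 scalings tried. It was the lowest library in 50.4% of all genes tested without scaling, and in 14.5% to 14.9% under the other scalings. EGR3 had 4 to 116 reads per library and overlaps a gene without a symbol.

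The NR4A genes encode orphan nuclear receptors, and NR4A1 and NR4A3 had the 2 largest positive fold changes among the immediate early members. NR4A1 (chromosome 5, 17385390 to 17408514) was at 0.540, 0.749 and 0.380 scaled RPKM in controls 1 to 3. In MSC veins it ran from 0.547 through a median of 3.28 to 19.4. The values in MSC 1, MSC 4, MSC 5 and MSC 6 lay above every control, while MSC 2 at 0.733 and MSC 3 at 0.547 lay within the control range. Its log2 fold change was 1.42 ± 0.69 (SE; 95% interval from −0.10 to 2.95), with an unadjusted p of 0.0647 and an adjusted p of 0.92 from limma. It was 0.98 with MSC 5 left out, and 2.14 at a pseudocount of 0.1 in place of 1.

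NR4A3 (chromosome 1, 241569905 to 241611734) was at 0.475, 0.358 and 0.335 in the controls and at 0.460, 1.30 and 6.79 as lowest, median and highest MSC value. MSC 5, the top library for NR4A1, held the least NR4A3 of the MSC group and lay just below control 1, and the other 5 MSC libraries lay above all controls. NR4A3 had a log2 fold change of 0.97 ± 0.46 (SE; 95% interval from −0.04 to 1.98) and an unadjusted limma p of 0.0583. For NR4A3 the value was 1.75 at the smaller pseudocount and 0.66 with MSC 4 left out. NR4A2 was at 1.77, 1.19 and 1.33 in controls and ran from 1.06 to 7.76 in MSC veins. MSC 4 led both NR4A2 and NR4A3, 2.04-fold and 2.52-fold above the next library, which was MSC 1 in both.

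**Figure D2:**
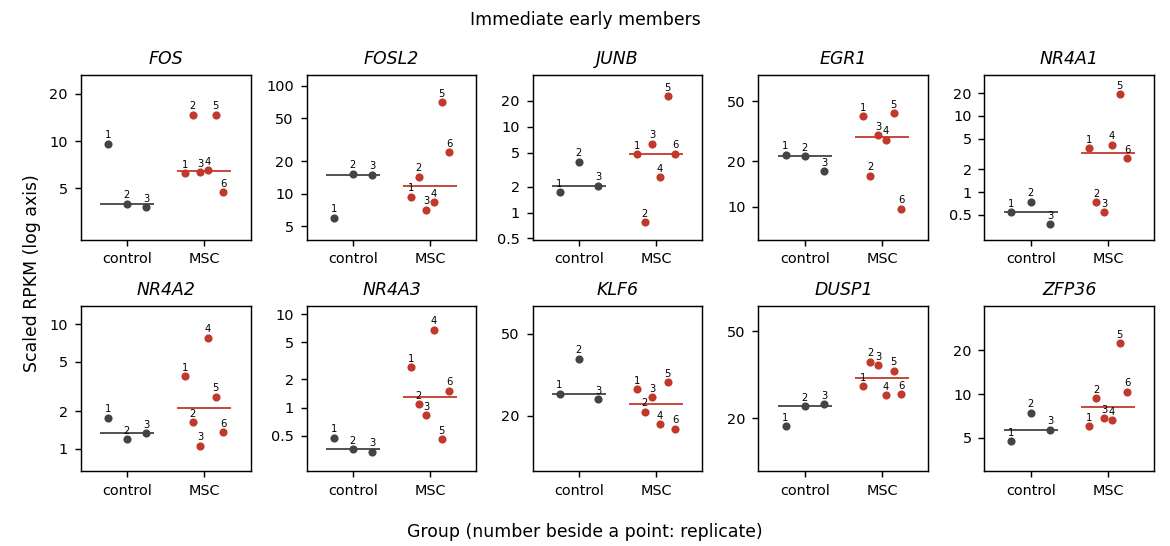
Scaled RPKM (log axis) of 10 immediate early genes; each point is a library with its replicate number, the horizontal line is the group median (3 control, 6 MSC). MSC 5 is highest for FOSL2 (70.6), JUNB (22.5), NR4A1 (19.4) and ZFP36 (22.4), MSC 4 for NR4A3 (6.79), and all 6 MSC points of DUSP1 (25.4 to 36.2) lie above the controls.

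Other transcription factors of the immediate early set showed smaller differences. KLF6, a zinc finger factor, was the most abundant immediate early member per length in controls, at 25.6, 37.8 and 24.1 scaled RPKM. The MSC libraries ran from 17.3 through 22.7 to 29.0, with 3 of 6 below every control and none above control 2. KLF6 was the member of this set with the most negative log2 fold change, −0.34 ± 0.29 (SE), which was −0.15 without control 2 and −0.51 without control 3. ATF3, a stress-responsive factor, ranged from 1.07 to 1.47 in controls and from 0.361 to 2.31 in MSC veins. MYC, a driver of cell growth, ranged from 2.15 to 2.90 and from 1.55 to 5.36, with its top levels in MSC 2 and MSC 5.

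The members that damp the response included DUSP1, a phosphatase that inactivates MAP kinases (chromosome 16, 51458020 to 51461086). DUSP1 was at 18.4, 22.7 and 23.2 scaled RPKM in controls 1 to 3, and at 25.4, 30.5 and 36.2 as lowest, median and highest MSC value. The groups did not overlap, but the lowest MSC library, MSC 4, lay close to control 3. The mean was 21.4 ± 2.64 (SD, n = 3) among controls and 30.6 ± 4.76 (SD, n = 6) for the MSC group, a log2 fold change of 0.49 ± 0.26 (SE; 95% interval from −0.08 to 1.06), with an adjusted p of 0.92 from limma. The separation depended on the scaling. In the RPKM as deposited, without scaling factors, MSC 6 was at 10.5 and below all controls (17.1 to 27.6), and the log2 fold change was 0.31; the separation held under the other 2 factor sets tried. All MSC libraries lay above all controls in 2% of all genes tested and below them in 1.95%; among the 27 members this was 1 and 0.

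ZFP36, which marks cytokine mRNAs for decay, was at 4.74, 7.47 and 5.67 scaled RPKM in controls and at 5.99, 8.10 and 22.4 as lowest, median and highest MSC value. MSC 5 lay 2.16-fold above MSC 6, the next library, and 3 MSC libraries lay within the control range; ZFP36 overlaps PAF1. SOCS3, an inhibitor of cytokine receptor signalling that overlaps TK1, ranged from 1.59 to 2.23 in controls and from 0.677 to 10.2 in MSC veins. MSC 5 held that top value, and MSC 1 and MSC 4 the 2 lowest. IER5 ranged from 3.02 to 4.47 and from 2.20 to 7.72, again with MSC 5 at the top. IER3, a regulator of cell survival that overlaps TUBB, ranged from 0.708 to 1.02 and from 0.647 to 2.04, with MSC 6 at the top.

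Among the heat shock members, the abundant HSP70 chaperone of unstressed cells, HSPA8 (chromosome 9, 49982284 to 49990508), had the highest level per length in controls. It was at 56.4, 53.0 and 48.6 scaled RPKM in controls 1 to 3, and at 23.7, 64.5 and 141 as lowest, median and highest MSC value. The controls differed by 1.16-fold at most, while the MSC libraries spanned 5.95-fold, with MSC 3 and MSC 6 at the top and MSC 5 at the bottom. The mean was 52.7 ± 3.93 (SD, n = 3) and 78.4 ± 50.3 (SD, n = 6). As deposited, without scaling, HSPA8 in MSC 6 was at 56.7 RPKM and in MSC 3 at 161. The row overlaps CLMP and 2 SNORD14 small nucleolar RNAs, which lie inside it. Their own rows held 125 to 1671 and 7 to 274 reads, most in MSC 6 in both.

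The 2 other HSP70 members were scarce. HSPA6, which is strictly stress-induced in human cells, ranged from 0.817 to 1.63 scaled RPKM in controls and from 0.664 to 1.39 in MSC veins. HSPA1L, a testis-rich member, had 9 to 28 reads per library and was at 0.159, 0.167 and 0.172 in controls. HSPA8 exceeded both in all 9 libraries. HSPA6 and HSPA1L each overlap a gene without a symbol, and closely related HSP70 copies may split or share reads.

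The co-chaperones of HSPA8 had opposite extremes in MSC 5. DNAJA1, an HSP40 co-chaperone that delivers clients to HSP70 (chromosome 10, 33432844 to 33445532), was at 19.4, 16.1 and 13.6 scaled RPKM in controls and at 1.09, 17.4 and 37.1 as lowest, median and highest MSC value. MSC 5 held 96 reads, while the other MSC libraries lay between 13.6 and 37.1 scaled RPKM, with MSC 2 level with control 3; DNAJA1 overlaps APTX. DNAJB1, another HSP40 and a classical HSF1 target, was at 7.13, 10.8 and 8.23 in controls and at 5.60, 9.46 and 15.3 in the same order of MSC values. Here MSC 5 was the highest library, and MSC 3, which led DNAJA1, was the lowest. Per length, DNAJA1 exceeded DNAJB1 in 8 libraries, while in MSC 5 DNAJB1 was 14.0-fold above DNAJA1. The log2 fold change of DNAJA1 was −0.26 ± 0.75 (SE), 0.30 without MSC 5 and 0.42 without MSC 5 and MSC 6.

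HSPH1, an HSP110 nucleotide exchange factor that resets HSP70, was at 8.65, 6.55 and 7.13 in controls and at 2.27, 7.36 and 11.5 as lowest, median and highest MSC value. MSC 5 was the lowest and MSC 3 the highest library in HSPA8, DNAJA1 and HSPH1 alike, under each of the 4 scalings. Over all genes tested, MSC 5 was the lowest library in 20.5% to 35.1% and MSC 3 the highest in 12.3% to 17.4%, depending on the scaling. MSC 6 differed between them, second highest in HSPA8 at 139 and level with control 2 in HSPH1, at 6.56.

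HSPB1, the small heat shock protein HSP27 that binds unfolding proteins and actin filaments (chromosome 3, 10037936 to 10039915), had the widest fold range within the MSC group of all members, 37.3-fold, followed by NR4A1. It was at 2.39, 5.13 and 3.85 scaled RPKM in controls 1 to 3, and at 2.49, 6.53 and 92.8 as lowest, median and highest MSC value. MSC 5 at 92.8 and MSC 6 at 52.2 stood far above all others, MSC 1 followed at 9.05, and MSC 2, MSC 3 and MSC 4 lay within the control range. The mean was 3.79 ± 1.37 (SD, n = 3) among controls and 27.2 ± 37.4 (SD, n = 6) for the MSC group, or 4.61 without MSC 5 and MSC 6. Its log2 fold change was 1.40 ± 1.03 (SE; 95% interval from −0.89 to 3.69), with an adjusted p of 0.92 from limma, and it was 0.82 without MSC 5 and 0.14 without MSC 5 and MSC 6. HSPB1 overlaps a gene without a symbol. It is one of the shortest members, at 1236 bases. Across 12314 protein-coding genes, the Spearman correlation of gene length with a library's deviation from the gene mean, in deposited RPKM, was −0.296 in MSC 6, −0.105 in MSC 5, −0.051 in MSC 3 and 0.017 to 0.271 in the other libraries. The part of gene length in the HSPB1 levels was not tested.

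BAG3, a co-chaperone that links HSP70 and small heat shock proteins to autophagy and is known for its role in muscle, was at 4.94, 6.68 and 6.72 in controls. It was at 5.18, 7.43 and 20.9 as lowest, median and highest MSC value. MSC 5 and MSC 6 again held the 2 highest levels, and MSC 3 and MSC 4 lay within the control range. The log2 fold change of BAG3 was 0.44 ± 0.40 (SE), and 0.20 without MSC 5.

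**Figure D3:**
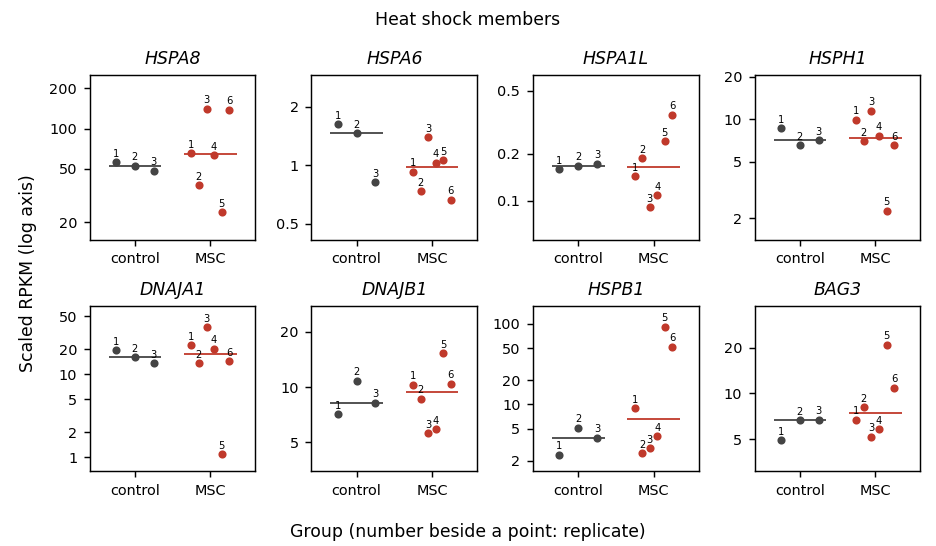
Scaled RPKM (log axis) of the 8 heat shock genes; each point is a library with its replicate number, the horizontal line is the group median (3 control, 6 MSC). MSC 5 is lowest for HSPA8 (23.7), HSPH1 (2.27) and DNAJA1 (1.09) and highest for HSPB1 (92.8), BAG3 (20.9) and DNAJB1 (15.3).

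The 3 libraries with the most HSPB1 also had the most smooth muscle marker RNA. All 10 listed smooth muscle genes were measured, and their summed level was 400 to 560 scaled RPKM in controls and 178 to 6889 in the MSC group; it reached 6461 in MSC 5, 6889 in MSC 6 and 1987 in MSC 1. MSC 3 had the least smooth muscle marker RNA, while MSC 2, at 828.7, had the least HSPB1 of the MSC group. The sum for the 7 measured endothelial markers was 33.8 to 98.2 in controls and 53.2 to 161 in MSC veins, with its top in MSC 5, and that of the 8 fibroblast markers 11880 to 26625 and 14072 to 57979. MSC 5 held the top fibroblast sum, but was the highest library in 4 and the lowest in 4 of these genes; LUM was at 29.2 there and at 340 to 395 in controls, and DPT at 18.9 and at 57.6 to 86.6. The 10 measured leukocyte markers summed to 131 to 169 in controls and to 102 to 318 in MSC veins. The top leukocyte sums were those of MSC 6, at 318, and MSC 3, at 269. Yet 8 of the 10 were negative in the fit, at a median log2 difference of −0.37. Erythroid markers, 3 of 5 measured, summed to 4.78 to 38.4 and to 9.63 to 539, again with MSC 3 and MSC 6 at the top. The libraries with the most HSPA8 thus had the highest leukocyte and erythroid sums. Nerve markers (4 of 5) summed to 6.48 to 23.85 and to 0.548 to 26.9, adipocyte markers (4 of 5) to 7.21 to 53.5 and to 3.03 to 54.3, and skeletal muscle markers (4 of 8) to at most 3.45. The part of these cell types in the members' levels was not tested.

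Over all 17884 genes tested, the share past an adjusted limma p of 0.05 was 0% in the higher direction and 0% in the lower, and accordingly 0 of the 27 members. At an unadjusted p under 0.05 it held 1.91% of genes higher and 2.11% lower, and 0 members in either direction; limma-voom on the recovered reads also called 0 genes, with 809 at an unadjusted p under 0.05. The smallest adjusted p of any member was 0.92. Of the 19 immediate early members, 16 were positive and 3 negative, and their log2 fold changes had a median of 0.23, against a median of 0.04 over all genes tested, 9953 of which were positive. Of the 8 heat shock members, 5 were positive and 3 negative, with a median of 0.03. The immediate early median was 0.12 without MSC 5, 0.21 without MSC 5 and MSC 6, and 0.09 in lanes 5 and 6 alone, the lanes with both groups. The heat shock median was 0.18 without MSC 5 and −0.07 on values as deposited, where its sign changed. Its sign also changed with no low-count filter, with limma-voom, without control 3 and without MSC 6. Under median-ratio and protein-coding scaling it stayed positive.

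**Figure D4:**
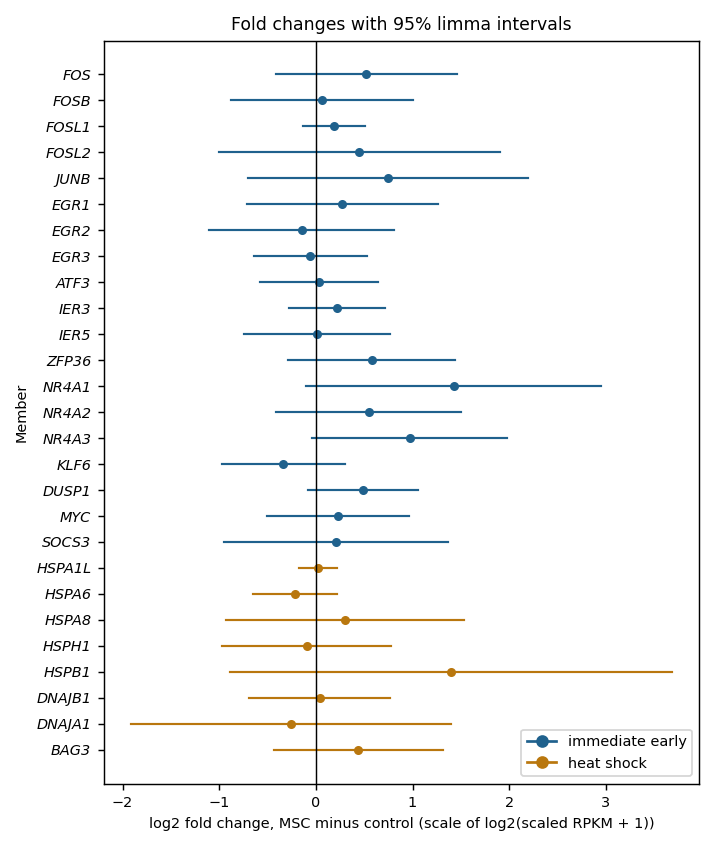
Log2 fold change of each member, MSC minus control, on the scale of log2(scaled RPKM + 1); points are estimates from limma and lines their 95% intervals. Every interval crosses 0, and that of HSPB1 (−0.89 to 3.69) is the widest.

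The spread within the MSC group exceeded that within the controls for 17 of 19 immediate early and 7 of 8 heat shock members. This was so for 92.8% of all genes tested, so the members did not stand apart from the background in that. The median SD of log2(scaled RPKM + 1) was 0.18 in controls and 0.64 in MSC libraries for immediate early members, and 0.23 and 0.68 for heat shock members, against 0.16 and 0.50 over all genes. The groups differ in size, 3 against 6 libraries. MSC 5 was the highest library in 11 of 19 immediate early members, against 31.6% of all genes, and MSC 6 the lowest in 6 of 19, against 14.9%. On values as deposited these counts were 9, against 26.5% of all genes, and 11, against 50.4%. In the 8 heat shock members MSC 5 was the highest library in 3 and the lowest in 3. This is near its 31.6% and 31.8% of all genes.

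Other early response genes, 61 measured of 65 listed, showed the same library at the top. MSC 5 held the highest level of 28 of them, 38 were positive and 23 negative, the median log2 difference was 0.11, and none was called. KLF4, a flow-responsive zinc finger factor, was at 4.19, 3.33 and 2.66 scaled RPKM in controls and ran from 4.23 to 8.55 in MSC veins, with MSC 2 just above control 1. GADD45A, a growth arrest gene, was at 5.13, 6.51 and 4.93 in controls and ran from 2.27 to 4.07 in MSC veins. CITED2, a transcriptional co-regulator, ran from 4.32 to 7.78 and from 2.85 to 5.23. The log2 fold changes were 0.79 ± 0.29, −0.67 ± 0.25 and −0.54 ± 0.27 (SE), each with a limma adjusted p of 0.92.

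The regulators upstream of immediate early genes, 38 measured of 40 listed, were near balance, with 18 positive, 20 negative, a median log2 fold change of −0.12 and none called. ELK3, a partner of serum response factor, was at 16.9, 15.6 and 17.2 scaled RPKM in controls and at 6.75 to 13.8 in MSC veins, without overlap. MAPK3, the kinase ERK1, ran from 12.9 to 17.9 and from 14.7 to 61.2, with its top in MSC 5. HEXIM1, an inhibitor of transcription elongation, ran from 4.90 to 5.82 and from 4.91 to 18.5, also with its top in MSC 5.

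Other cytosolic chaperones, 42 measured of 49 listed, were positive in 27 and negative in 15 cases, at a median log2 difference of 0.21, with none called. CRYAB, a small heat shock protein of muscle and lens, was at 13.6, 3.13 and 9.83 scaled RPKM in controls, and the MSC libraries ran from 16.0 to 270 without overlap. MSC 6, second in HSPB1, held the top value of CRYAB, and the log2 difference of CRYAB was 2.29 ± 0.81 (SE; adjusted p of 0.92 by limma). AHSA1, an activator of HSP90, ran from 9.44 to 9.99 in controls and from 12.3 to 20.5 in MSC veins. HSPA12B, an endothelial HSP70 relative, ran from 1.24 to 2.09 and from 2.12 to 5.30.

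Of the 4 genes in the heat shock factor list, which includes the factor-binding HSBP1, 3 had a positive fold change, and none was called. HSF2, a heat shock transcription factor, was at 6.63, 7.15 and 5.96 scaled RPKM in controls and at 1.83 to 6.23 in MSC veins, with its 2 lowest levels in MSC 5 and MSC 6. HSF4, another factor of the family, was at 55.1 in MSC 5 and between 4.17 and 8.66 in all other libraries. HSBP1, which binds HSF1, ran from 25.4 to 29.2 in controls and from 23.4 to 145 in MSC veins, with its top in MSC 6.

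Chaperones of other compartments gave no call either. In the endoplasmic reticulum list, 9 of 23 measured genes were positive, with a median log2 fold change of −0.10. EDEM1, which sorts misfolded glycoproteins for degradation, ran from 23.9 to 28.6 scaled RPKM in controls and from 12.9 to 22.4 in MSC veins, without overlap. SEL1L, of the same disposal route, ran from 22.3 to 24.3 and from 5.32 to 22.9, and DDIT3, a transcription factor of the unfolded protein response, from 6.59 to 10.8 and from 8.29 to 19.2. In the mitochondrial list, 6 of 10 measured genes were positive, with a median of 0.18. HSCB, a co-chaperone of iron-sulfur cluster assembly, ran from 7.48 to 7.51 in controls and from 7.60 to 43.8 in MSC veins. The protease subunit gene CLPP had its top in MSC 5, at 3.59 against 0.306 to 1.64 elsewhere, and GRPEL2, a nucleotide exchange factor, ran from 2.34 to 2.55 and from 1.54 to 2.63.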

How the data were processed

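The authors deposited RPKM values for 9 libraries, 3 control and 6 MSC; the unit is named per the file headers. Libraries were prepared with the TruSeq V2 kit and an input of 0.5 µg RNA, per the labels' protocols. Neither aligner nor counter is given in the sources used here. The builds susScr11 and mm10 appear in the submitters' processing notes without a role, so coordinates are those of the deposited table. Low values came in even steps, and dividing by the step gave back reads, 100% of them within 0.01 of a whole number.

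Tested genes had at least 10 reads, after scaling to median depth, in 3 or more libraries, and a total of 15. RPKM was divided by trimmed mean of M-values factors (trims 0.3 and 0.05) computed from those reads. Limma 3.58.1 in R 4.3.3 was fitted to log2(scaled RPKM + 1) with a trended prior, all 9 libraries and no covariate, with Benjamini-Hochberg adjustment over all genes and a threshold of 0.05. Fold changes on this scale understate changes of low genes. The procedure was also run on simulated reads with known changes. The outcome is not given here, so how often a true change would be called is not stated.

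Members and lists were chosen with earlier results of these data known. Each control value and the lowest, median and highest MSC value are given for the 14 members with a group mean of at least 5 scaled RPKM, and for others where a result turns on them. From each pathway list the 3 genes with the smallest p are named. Other pseudocounts, filters and scalings, limma-voom, lane, replicate number and left-out libraries were also tried. No sequence is shown.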

Additional observations from a re-analysis of the deposited data

Results flagged for a closer look

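In the 6 MSC libraries, 29 values were examined (27 members and 2 list medians). In 3 of them, 1 library lay far from the other 5, each time MSC 5. The rule flags about 1 in 20 values by chance, here 1.45, only where no library is extreme in general. MSC 5 held the highest value of 31.6% and the lowest of 31.8% of all genes tested. How often it is flagged over all genes was not computed. The 3 controls were too few to examine. DNAJA1 in MSC 5 was at 1.07 on the log2(scaled RPKM + 1) scale, against 3.87 to 5.25 in the other MSC libraries. HSPH1 was at 1.71, against 2.92 to 3.64. It passed the rule narrowly, with a gap of 0.626 of the range against a limit of 0.625. The immediate early median deviation was 0.80, against −0.14 to 0.10. Members of a list share the library, so these values are not independent.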

How the results depend on the processing

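Under 21 alternatives, 0 of the 27 members passed, the smallest adjusted p being 0.252, and 15 members kept their sign throughout. The immediate early median stayed positive (0.12 to 0.33 with libraries left out). The heat shock median was −0.050 with no low-count filter, −0.074 without scaling, −0.0043 with limma-voom, 0.14 in lanes 5 and 6 alone, 0.16 with a lane term, 0.12 under the replicate block, and −0.013 to 0.18 with libraries left out. Genes called numbered 7 in lanes 5 and 6 alone and 0 to 25 with libraries left out (25 without control 1, 3 without MSC 3, 1 without MSC 2). The lane term, the replicate block and lanes 5 and 6 alone are overlapping subsets of libraries, not separate checks. Lane 7 held no control, so with a lane term MSC 2, MSC 5 and MSC 6 did not enter the group difference. Under the replicate block MSC 4, MSC 5 and MSC 6 did not enter it, since no control carries their replicate numbers. Depth limited FOSL1, HSPA1L and EGR3 most.

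Log2 fold changes of members took the other sign as follows. With no low-count filter the values were FOSB −0.033, ATF3 −0.050, IER5 −0.098, HSPA1L −0.0054, DNAJB1 −0.094. Without scaling the values were FOSB −0.10, IER5 −0.13, HSPA1L −0.024, DNAJB1 −0.12. With limma-voom the values were FOSB −0.055, HSPA1L −0.050. With a lane term the values were FOSB −0.33, FOSL2 −0.46, EGR2 0.38, IER5 −0.031, SOCS3 −0.51, HSPA1L −0.059, HSPH1 0.36, DNAJB1 −0.12, DNAJA1 0.64, BAG3 −0.030. Under the replicate block the values were FOSB −0.33, FOSL2 −0.17, IER5 −0.16, HSPA1L −0.033, HSPH1 0.30, DNAJB1 −0.10, DNAJA1 0.45. In lanes 5 and 6 alone the values were FOSB −0.49, FOSL2 −0.41, EGR2 0.32, IER5 −0.17, SOCS3 −0.46, HSPA1L −0.075, HSPH1 0.34, DNAJB1 −0.27, DNAJA1 0.64, BAG3 −0.042. Without MSC 5 and MSC 6, chosen after seeing the data, the values were FOSB −0.38, FOSL2 −0.22, EGR2 0.059, IER5 −0.26, SOCS3 −0.19, HSPA1L −0.049, HSPH1 0.24, DNAJB1 −0.20, DNAJA1 0.42. With a pseudocount of 0.1 the values were ATF3 −0.026, IER5 −0.0035. With protein-coding scaling the values were IER5 −0.031, DNAJB1 −0.0066. With libraries left out the ranges across 0 were FOSB −0.19 to 0.32, EGR2 −0.50 to 0.098, EGR3 −0.23 to 0.047, ATF3 −0.069 to 0.19, IER5 −0.17 to 0.13, SOCS3 −0.13 to 0.42, HSPA1L −0.019 to 0.044, HSPH1 −0.29 to 0.16, DNAJB1 −0.10 to 0.18, DNAJA1 −0.54 to 0.30. Among members that kept their sign, NR4A1 was 2.40 with limma-voom and 0.59 under the replicate block, NR4A3 2.02 and 0.80, and HSPB1 1.49 and 0.15; HSPB1 was 0.50 with a lane term. The block values leave out MSC 4, MSC 5 and MSC 6, and the lane-term value leaves out MSC 2, MSC 5 and MSC 6. MSC 5 and MSC 6 held the highest HSPB1 levels. What else set the values apart was not tested. Replicate numbers 1 to 3 occur in both groups, and the other numbers in the MSC group alone. Deviations of same-numbered libraries had r of 0.217, −0.523 and −0.141 across genes, and none correlated best with its own number. These values gave no sign of pairing, but 3 such correlations cannot exclude it. The block left 0 genes called. The 2 count tools intended as alternatives were not run, since the deposited unit is RPKM.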
